A study of Rattus norvegicus with 24 samples.

Results

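The genes described here are the 3 chains of complement C1q, C1qa (ENSRNOG00000012807), C1qb (ENSRNOG00000012804) and C1qc (ENSRNOG00000012749), and complement C3 (ENSRNOG00000046834). They are 4 of the 31998 rows of a table of estimated gene counts and were picked by identifier. The table holds Ensembl identifiers without symbols, so the 4 symbols come from the definition of the set and not from the table. All 4 had enough counts to be tested, among 16661 genes that had.

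The samples were plantaris muscle, a calf muscle, of female rats aged 14 months from generation 19 of the lines LRT and HRT, which were bred for a low and a high gain in running capacity with endurance training. Groups were LRT overload, LRT control, HRT overload and HRT control, with 6 libraries each. In the overloaded groups the gastrocnemius and soleus of one leg had been removed, which loads the remaining plantaris, and the muscle was collected 14 days later. Whether a control muscle was the unoperated leg of an overloaded rat or came from another rat is not given. The edgeR p-values, standard errors and intervals rest on a spread among libraries within groups, estimated over all groups together. They do not reflect the spread of the compared groups alone. Permutation p-values rest on the libraries they compare. Rats of a line share their breeding history, so a line difference describes these lines at this generation.

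C1q is the recognition molecule of the classical complement pathway. Its A, B and C chains, the products of C1qa, C1qb and C1qc, assemble into a bouquet of collagen-like stalks with globular heads that bind immune complexes, dying cells and other surfaces, and the bound molecule activates the proteases C1r and C1s. C3 stands where the classical, lectin and alternative pathways meet, and its cleavage yields C3b, which coats surfaces for uptake, and the inflammatory peptide C3a. In tissues the C1q chains are made mainly by macrophages and dendritic cells, while C3 comes from liver and, locally, from several cell types including stromal cells and macrophages. In mice C1q is also known to activate Wnt signalling in ageing skeletal muscle.

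In the RefSeq annotation of the rat assembly GRCr8, C1qb, C1qc and C1qa lie next to each other in that order on chromosome 5, and C3 lies on chromosome 9. The 250 bases before the annotated start are given below, from RefSeq on GRCr8, for C1qa, C1qb and C3, so that 2 C1q genes can be set beside C3. C1qc had no entry in the promoter table. C1qa is taken from chr5:154419934-154420183, C1qb from chr5:154407828-154408077 and C3 from chr9:2201340-2201589, all on the minus strand and written 5′ to 3′ along the gene, with motif matches in capitals.
C1qa: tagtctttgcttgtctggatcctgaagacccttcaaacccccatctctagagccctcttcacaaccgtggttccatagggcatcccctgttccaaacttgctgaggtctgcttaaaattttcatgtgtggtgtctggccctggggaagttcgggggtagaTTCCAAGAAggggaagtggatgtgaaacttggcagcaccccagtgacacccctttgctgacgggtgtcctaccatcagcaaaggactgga
C1qb: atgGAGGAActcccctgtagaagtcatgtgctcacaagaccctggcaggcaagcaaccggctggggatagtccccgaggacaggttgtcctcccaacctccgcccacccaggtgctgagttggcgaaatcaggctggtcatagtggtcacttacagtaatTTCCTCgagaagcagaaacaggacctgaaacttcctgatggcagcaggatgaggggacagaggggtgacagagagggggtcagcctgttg
C3: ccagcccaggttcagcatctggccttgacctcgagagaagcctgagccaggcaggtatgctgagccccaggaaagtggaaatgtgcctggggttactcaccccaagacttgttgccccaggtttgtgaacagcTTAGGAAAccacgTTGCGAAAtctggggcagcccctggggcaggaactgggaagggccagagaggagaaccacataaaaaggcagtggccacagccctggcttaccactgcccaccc
Both strands were searched for 7 motifs. The ETS/PU.1 core GAGGAA, found in 23.3% of the 33469 windows of this length, occurred at 2 places in C1qb, at -247 to -242 and, on the other strand, at -90 to -85 from the start. The C/EBP pattern TTNNGNAA (37.2% of windows) occurred in C3 at -117 to -110 and at -104 to -97, and the second of these matched on both strands. The STAT pattern TTCNNNGAA (7.67%) occurred in C1qa at -90 to -82. No match to the AP-1 pattern TGANTCA (6.34%), the NF-kB motif (4.36%), the IRF motif (3.41%) or the TATA box TATAAA (12.9%) lay in these 3 windows. No motif was shared between the windows. A match is a run of letters, and binding was not measured.

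Library totals ranged from 26997674 to 34254957 estimated counts. RNA quality and library scaling both moved with overload. RNA integrity numbers (RIN) ran from 8.2 to 8.9 in LRT overload and 8.1 to 8.5 in LRT control, and from 8.6 to 9.4 in HRT overload and 8.0 to 8.6 in HRT control. Scaling factors by trimmed mean of M values (TMM) ran from 0.977 to 1.18 in LRT overload and 0.844 to 0.930 in LRT control, and from 1.01 to 1.28 in HRT overload and 0.916 to 0.955 in HRT control. The responses with RIN in the model and under another scaling are given with the results. Levels below are in CPM, estimated counts relative to library size after this scaling. They are not divided by transcript length, so a level is compared between groups and not between genes. Lists of cell type markers and of other complement genes could not be applied, because 0 identifiers of the table matched a named gene in the reference used here. In bulk muscle, more cells that express a gene and more RNA per cell cannot be told apart.

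All 4 genes were higher in overloaded than in control muscle in both lines. The C1q chains rose by 2.78-fold to 3.31-fold in LRT and by 2.74-fold to 3.67-fold in HRT, and C3 rose by 12.1-fold in LRT and 11.9-fold in HRT. Each of the 4 passed the edgeR quasi-likelihood test at an adjusted p of 0.05 in both lines, where 28.9% of all tested genes were called higher in LRT and 31.9% in HRT. For each gene every overloaded library lay above every control library of its line, as was the case for 17.3% of tested genes in LRT and 21.4% in HRT. The median log2 fold change of the 4 genes was 1.67 in LRT and 1.75 in HRT, against medians of -0.022 and -0.025 over all 16661 genes.

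**Figure D1:**
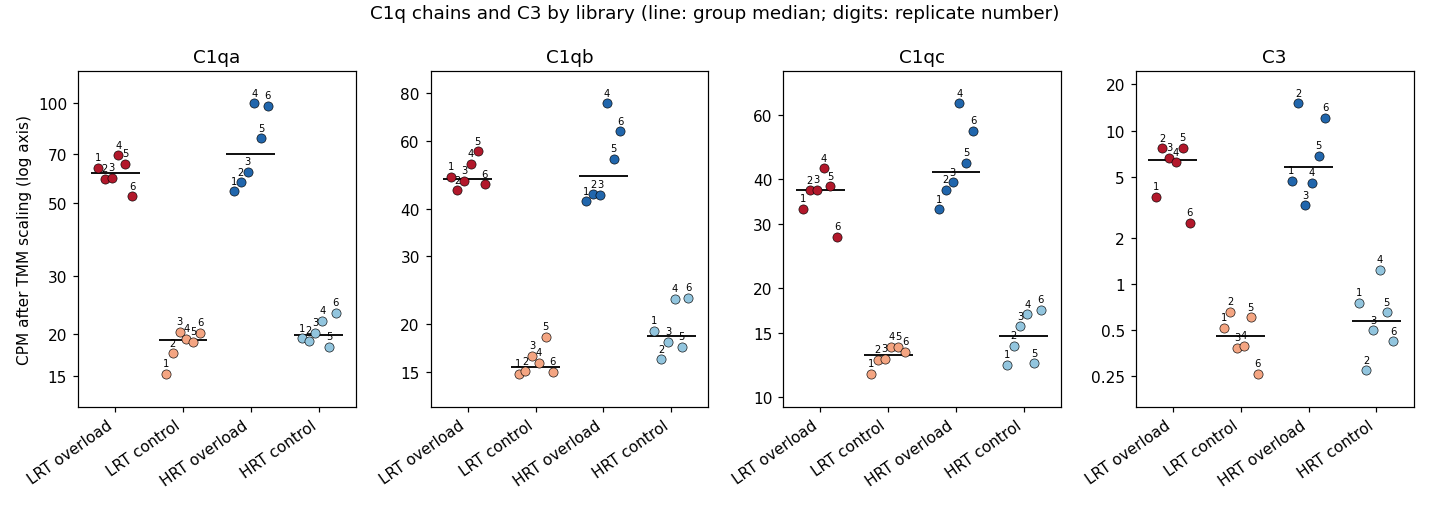
CPM of each gene in each library on a log axis, by group, with the group median as a line and the replicate number above each point. Every overloaded library lies above every control library of its line, and the HRT overload libraries spread more widely for the C1q chains (C1qa 54.0 to 99.7 CPM) than the LRT overload libraries (52.2 to 69.4 CPM).

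C1qa encodes the A chain. In LRT it had a lowest, median and highest value of 52.2, 61.5 and 69.4 CPM in overloaded muscle, against 15.2, 19.2 and 20.4 CPM in control muscle. The overloaded and control libraries did not overlap, and the lowest overloaded library stood at 2.56 times the highest control library. The log2 fold change was 1.73 ± 0.130 (SE, n = 6 against 6; edgeR adjusted p = 5.37e-10). In HRT the lowest, median and highest values were 54.0, 70.04 and 99.7 CPM in overloaded muscle, against 18.3, 19.8 and 23.2 CPM in control muscle. Here 3 overloaded libraries, replicates 4, 5 and 6, lay between 78.2 and 99.7 CPM and the other 3 between 54.0 and 61.9 CPM. The log2 fold change was 1.88 ± 0.130 (SE; edgeR adjusted p = 5.82e-11).

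C1qb encodes the B chain. In LRT it had a lowest, median and highest value of 44.6, 47.8 and 56.4 CPM in overloaded muscle, against 14.8, 15.4 and 18.5 CPM in control muscle. The log2 fold change was 1.62 ± 0.127 (SE, n = 6 against 6; edgeR adjusted p = 9.54e-10). In HRT the values were 41.8, 48.7 and 75.3 CPM in overloaded muscle, against 16.2, 18.5 and 23.4 CPM in control muscle, with a log2 fold change of 1.45 ± 0.126 (edgeR adjusted p = 1.52e-09). C1qb was the chain with the smallest rise in HRT and not in LRT, and its margin between groups in HRT, 1.79 times from the highest control to the lowest overloaded library, was the narrowest of the 4 genes.

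C1qc encodes the C chain. In LRT its lowest, median and highest values were 27.7, 37.3 and 42.9 CPM in overloaded muscle, against 11.5, 13.03 and 13.7 CPM in control muscle (log2 fold change 1.48 ± 0.137, SE, n = 6 against 6; edgeR adjusted p = 9.91e-09). In HRT they were 33.0, 41.8 and 64.8 CPM in overloaded muscle, against 12.2, 14.7 and 17.4 CPM in control muscle, and the log2 fold change reached 1.63 ± 0.137 (edgeR adjusted p = 9.61e-10). In LRT the coefficient of variation was 14.3% in overloaded muscle, against 6.44% in control muscle, where the libraries lay close together.

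C3 was the gene with the lowest counts and the largest rise of the 4. In LRT its lowest, median and highest values were 2.50, 6.42 and 7.74 CPM in overloaded muscle, against 0.259, 0.457 and 0.657 CPM in control muscle. The log2 fold change was 3.59 ± 0.421 (SE, n = 6 against 6; edgeR adjusted p = 3.31e-07). In HRT the values were 3.25, 5.77 and 15.03 CPM in overloaded muscle, against 0.274, 0.576 and 1.24 CPM in control muscle, a log2 fold change of 3.57 ± 0.403 (edgeR adjusted p = 1.04e-07). The groups did not overlap in either line, and replicates 2 and 6 of HRT overload, at 15.03 and 12.1 CPM, stood above the other 4 at 3.25 to 6.82 CPM. The control levels rest on few reads, 7.10 to 19.4 estimated counts per library in LRT and 6.98 to 39.0 in HRT, and the 95% intervals of the log2 fold change were wide, 2.72 to 4.46 in LRT and 2.74 to 4.404 in HRT.

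Among all tested genes, ranked from the highest log2 fold change down, C3 stood at place 76 in LRT and 136 in HRT. C1qa stood at 839 in LRT and 942 in HRT, C1qb at 967 and 1554, and C1qc at 1177 and 1293. By p-value the order was turned: C1qa was at place 38 in LRT and 58 in HRT and C3 at 671 and 1124. With libraries scaled by their totals alone, the median log2 fold change of all genes was 0.22 in LRT and 0.27 in HRT. Relative to those medians the log2 fold changes were 1.75, 1.64, 1.499 and 3.62 in LRT, for C1qa, C1qb, C1qc and C3 in that order, and 1.89, 1.47, 1.64 and 3.65 in HRT. With TMM scaling and RIN as a covariate, C1qa had a log2 fold change of 1.601 in LRT and 1.64 in HRT. C1qb had 1.53 in LRT and 1.29 in HRT, and C1qc 1.40 in LRT and 1.49 in HRT. C3 had 3.95 in LRT and 4.23 in HRT. Every C1q chain was thus lower than without RIN in both lines, and C3 was higher.

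**Figure D2:**
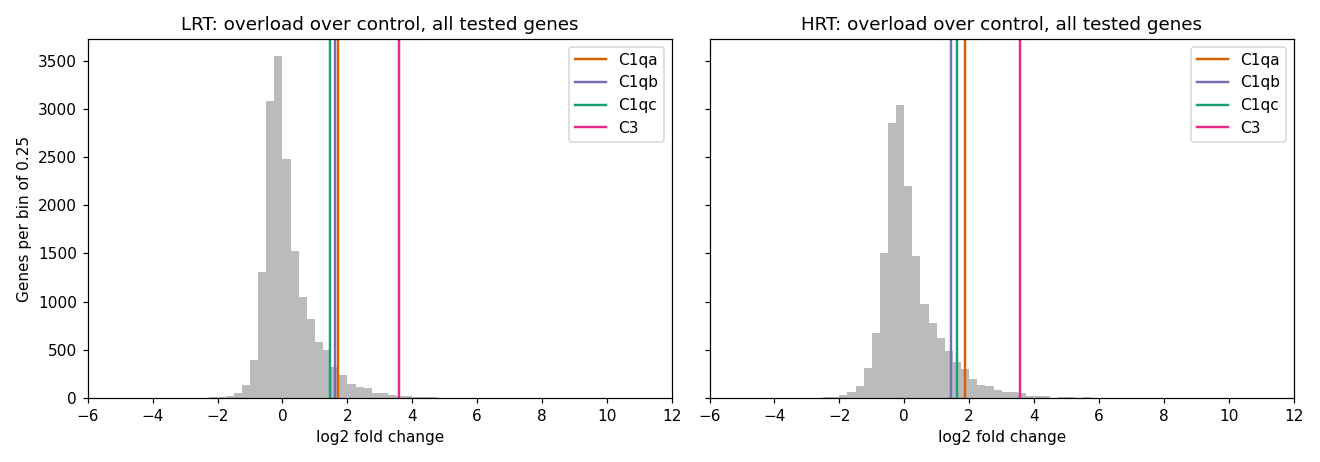
Histograms of the log2 fold change of overloaded over control muscle for all tested genes, in LRT and HRT, in bins of 0.25, with coloured lines at the 4 genes. The C1q chains lie between 1.48 and 1.73 in LRT and between 1.45 and 1.88 in HRT, and C3 lies at 3.59 and 3.57, far into the upper tail.

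The next question was whether the lines responded differently. For none of the 4 genes did the difference between the responses pass the threshold, and 0.0480% of all genes passed it. The difference, LRT minus HRT on the log2 scale, was -0.15 for C1qa (95% interval -0.52 to 0.22; edgeR adjusted p = 0.735) and -0.15 for C1qc (-0.54 to 0.24; edgeR adjusted p = 0.754). It was 0.17 for C1qb (-0.19 to 0.53; edgeR adjusted p = 0.696), and 0.023 for C3 (-1.05 to 1.10; edgeR adjusted p = 0.991). Unadjusted, 0 of the 4 had a p under 0.05, and the DESeq2 Wald test called 0 of them. For C3 the interval holds differences of over 2-fold in either direction.

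Levels in the lines were then compared within each state. In control muscle all 4 genes had lower means in LRT than in HRT, and none passed, against 1.97% of all genes. C1qa averaged 18.6 ± 1.96 CPM in LRT and 20.4 ± 1.86 CPM in HRT (SD, n = 6 each; log2 fold change -0.13 with edgeR adjusted p = 0.659). C1qb averaged 15.95 ± 1.42 CPM in LRT and 19.5 ± 3.06 CPM in HRT (log2 fold change -0.29 with edgeR adjusted p = 0.235). C1qc averaged 12.95 ± 0.834 CPM in LRT and 14.7 ± 2.24 CPM in HRT (log2 fold change -0.19 with edgeR adjusted p = 0.536). C3 averaged 0.470 ± 0.151 CPM in LRT and 0.6405 ± 0.340 CPM in HRT (log2 fold change -0.46 with edgeR adjusted p = 0.692). For each gene the libraries of the lines overlapped, and unadjusted only C1qb had a p under 0.05.

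In overloaded muscle the means were again lower in LRT for all 4 genes, and none passed, against 3.09% of all genes. C1qa averaged 61.5 ± 5.98 CPM in LRT and 74.9 ± 20.3 CPM in HRT (SD, n = 6 each; log2 fold change -0.28 with edgeR adjusted p = 0.182). C1qb averaged 49.2 ± 4.37 CPM in LRT and 53.6 ± 13.5 CPM in HRT (log2 fold change -0.12 with edgeR adjusted p = 0.587). C1qc averaged 36.05 ± 5.16 CPM in LRT and 45.5 ± 11.98 CPM in HRT (log2 fold change -0.34 with edgeR adjusted p = 0.136). C3 averaged 5.74 ± 2.16 CPM in LRT and 7.75 ± 4.74 CPM in HRT (log2 fold change -0.43 with edgeR adjusted p = 0.461). The libraries of the lines again overlapped, and unadjusted C1qa and C1qc had a p under 0.05. Scaling by library totals brought C1qa (-0.42, edgeR adjusted p = 0.0271) and C1qc (-0.47, edgeR adjusted p = 0.0224) past the threshold, with the median of all genes at -0.15. Relative to that median they stood at -0.27 and -0.32.

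**Figure D3:**
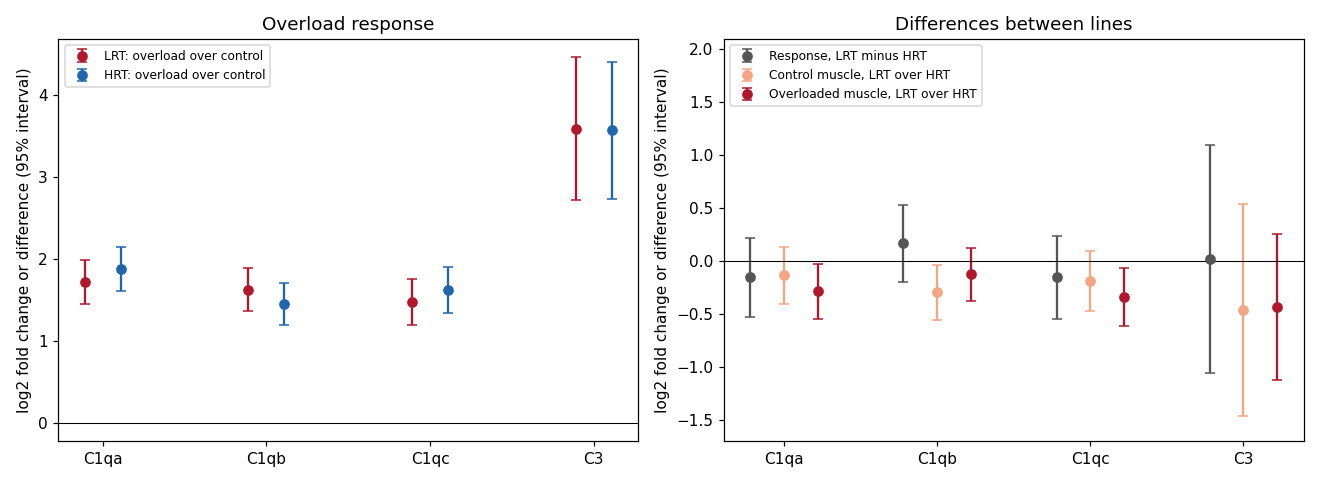
Log2 fold changes with 95% intervals from the edgeR model of all 24 libraries. Left, overloaded over control muscle in LRT and in HRT, with C3 near 3.6 and the C1q chains between 1.45 and 1.88. Right, the difference between those responses and the line differences within each state, where the interval of C3 is the widest.

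The genes also differed in how their libraries spread. Within HRT overload the coefficient of variation was 27.1% for C1qa, 25.2% for C1qb and 26.3% for C1qc, against 9.12%, 15.7% and 15.2% in HRT control. In LRT it was 9.73%, 8.89% and 14.3% after overload, against 10.6%, 8.87% and 6.44% in control muscle. For C3 it was 37.7% in LRT overload and 32.0% in LRT control, and 61.1% in HRT overload and 53.0% in HRT control. The spread of the C1q chains was thus wider in HRT overload than in the other groups, as a description without a test.

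The chains were then set against each other within each library, as ratios of CPM + 0.5. The scaling of libraries nearly cancels in these, as the levels of the chains lie far above 0.5. In ratios with C3, whose control levels lie near 0.5, it does not cancel. RIN, which moved with overload, was not part of any ratio test. C1qa gained on C1qb in HRT. The log2 ratio of C1qa to C1qb averaged 0.47 ± 0.0975 in HRT overload and 0.068 ± 0.116 in HRT control (SD, n = 6 each), and the libraries did not overlap. The difference was 0.40, or 1.32-fold (exact permutation p = 0.00216, two-sided, which is the lowest value this design can give; adjusted p = 0.00866 over 12 ratio tests). In LRT the ratio averaged 0.32 ± 0.102 after overload and 0.21 ± 0.153 in control muscle, a difference of 0.11 (exact permutation p = 0.199, adjusted p = 0.199). The difference between these changes, LRT minus HRT, was -0.30 (exact permutation p = 0.0057, two-sided, adjusted p = 0.0278 over 6 ratios). This test was added after the values had been seen. It regrouped libraries between lines within each state, so its p is exact only if the lines differ in neither state. The difference no longer passed without LRT control replicate 4 or 6 or HRT control replicate 1 (adjusted p up to 0.0594).

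C1qa gained on C1qc in both lines. The log2 ratio averaged 0.77 ± 0.123 in LRT overload and 0.50 ± 0.1001 in LRT control, a difference of 0.27 (n = 6 each, exact permutation p = 0.00216, adjusted p = 0.00866). In HRT it averaged 0.71 ± 0.0980 in overload and 0.47 ± 0.113 in control, a difference of 0.24 (exact permutation p = 0.00649, adjusted p = 0.0130). With RIN in the edgeR model, the log2 fold change of C1qa was 1.601 in LRT and 1.64 in HRT. That of C1qc was 1.40 in LRT and 1.49 in HRT. Without RIN they were 1.73 and 1.88 for C1qa and 1.48 and 1.63 for C1qc. With RIN the rise of C1qa thus stayed above that of C1qc, by a narrower margin that was not tested. The ratio of C1qb to C1qc changed in opposite directions, by 0.16 in LRT (exact permutation p = 0.0866, adjusted p = 0.0945) and -0.16 in HRT (exact permutation p = 0.0563, adjusted p = 0.0675). Neither change passed, while their difference of 0.32 did in the same test between lines, with the same limit (exact permutation p = 0.00927, adjusted p = 0.0278). This ratio and that of C1qa to C1qb share C1qb, so the 2 results are not independent. This call too was lost without any 1 of those 3 libraries, and without HRT overload replicate 3.

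Shares of the summed C1q CPM of a library, not corrected for length, are compared between groups only, and say nothing of which chain had more transcripts. C1qa made up 41.9% ± 1.06 in LRT overload and 39.1% ± 2.06 in LRT control (SD, n = 6 each), and 42.9% ± 1.57 in HRT overload and 37.4% ± 1.33 in HRT control. C1qb made up 33.6% ± 1.99 in LRT overload and 33.6% ± 1.99 in LRT control, against 30.9% ± 1.09 in HRT overload and 35.7% ± 2.05 in HRT control. C1qc made up 24.5% ± 1.89 in LRT overload and 27.3% ± 0.918 in LRT control, and 26.2% ± 0.962 in HRT overload and 26.9% ± 1.78 in HRT control. The share of C1qb was therefore level in LRT and lower after overload in HRT, and that of C1qc was lower after overload in LRT. The summed C1q level was 146.7 ± 13.9 CPM in LRT overload and 47.5 ± 3.53 CPM in LRT control, and 174.0 ± 45.3 CPM in HRT overload and 54.7 ± 6.80 CPM in HRT control.

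The rise of C3 against each C1q chain depended on how its low control levels were treated. On the log2(CPM + 0.5) scale the ratio of C1qa to C3 was lower after overload by -0.91 in LRT (n = 6 against 6, exact permutation p = 0.00866, adjusted p = 0.0148) and by -0.90 in HRT (exact permutation p = 0.0368, adjusted p = 0.0491). The HRT value lay between -1.09 and -0.61 with any 1 library omitted, and lost its call in 9 of 12 cases. The ratio of C1qb to C3 changed by -1.01 in LRT and -1.30 in HRT (adjusted p = 0.0130 in both, exact permutation), and that of C1qc to C3 by -1.18 in LRT and -1.14 in HRT (adjusted p = 0.00866 and 0.0292, exact permutation). The last was -0.87 without HRT overload replicate 2 (adjusted p = 0.0519). The control levels of C3 lie near the added 0.5, which shrinks these values: with none added, the changes against C1qa, C1qb and C1qc were -1.84, -1.94 and -2.10 in LRT and -1.701, -2.11 and -1.94 in HRT. In that setting, which was added after seeing the data, all 6 changes passed (exact permutation, adjusted p from 0.00519 to 0.00974). With 1 added they were -0.45, -0.56 and -0.73 in LRT and -0.48, -0.88 and -0.73 in HRT, and the change of C1qc to C3 in LRT was the only one of the 6 that still passed.

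**Figure D4:**
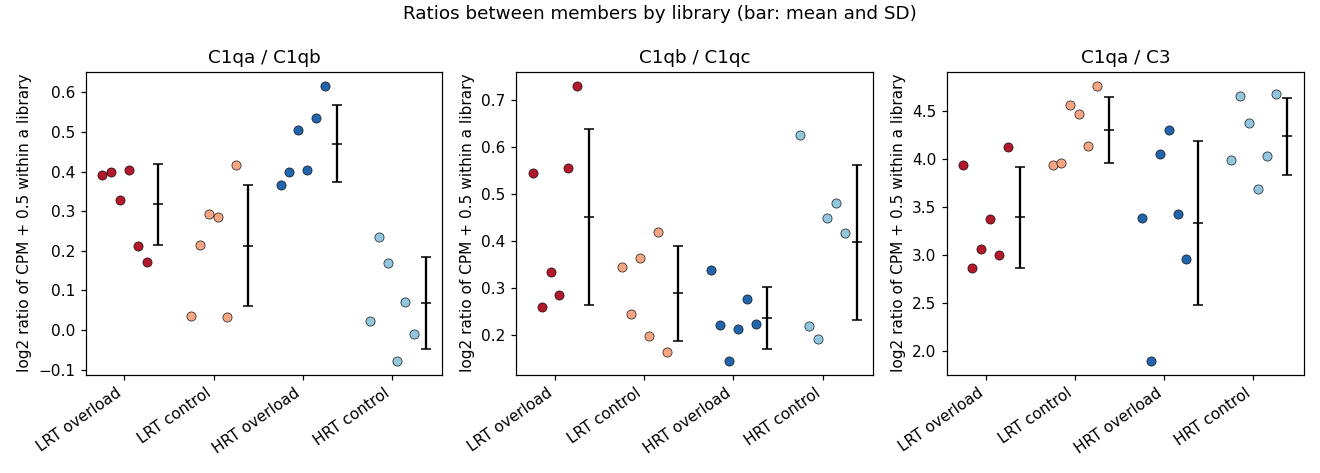
Log2 ratios of CPM + 0.5 within each library by group, with the mean and SD beside the points. The ratio of C1qa to C1qb averages 0.47 in HRT overload and 0.068 in HRT control without overlap, while the LRT groups overlap; the ratio of C1qa to C3 averages lower in both overloaded groups.

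The C1q chains went up and down together in HRT overload, the only group where their r passed. Whether r differed between groups was not tested. Among the 6 HRT overload libraries, C1qa and C1qc had Pearson's r = 0.97 (exact permutation p = 0.00278, adjusted p = 0.0444 over 24 relations) and Spearman's rho = 1.00 (exact permutation p = 0.00278, adjusted p = 0.0667). C1qa and C1qb had r = 0.97 (exact permutation p = 0.00556, adjusted p = 0.0444) and rho = 0.94 (exact permutation p = 0.0167, adjusted p = 0.133), and C1qb and C1qc had r = 0.98 and rho = 0.94 with the same p-values. Without the 2 libraries farthest from the median of the first gene of a pair, these r were 0.95, 0.97 and 0.88, in the order given. Leaving those libraries out narrows the range, which by itself can lower r. With scaling by library totals none of the 3 passed (exact permutation, adjusted p = 0.0667, 0.0667 and 0.0889). In LRT overload the 3 pairs had r of 0.84, 0.71 and 0.49 and rho of 0.83, 0.89 and 0.66, in the same order (exact permutation p of r 0.05, 0.0833 and 0.294, adjusted p = 0.2, 0.25 and 0.507). Without the 2 farthest libraries, which were not the same for every pair, these r were -0.21, 0.88 and -0.15. With so few libraries left over a narrower range, this cannot tell whether a relation rests on the libraries left out. In HRT control the pairs had r of 0.91, 0.90 and 0.71, in the same order (exact permutation p of r 0.0167, 0.05 and 0.144). Without the 2 farthest libraries these were 0.74, 0.34 and -0.27. In LRT control they had 0.79, 0.41 and 0.56, and -0.88, -0.65 and 0.77 without them. None of these passed (exact permutation, adjusted p from 0.1 to 0.567).

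C3 had r of 0.10, 0.052 and 0.034 with C1qa, C1qb and C1qc in HRT overload (exact permutation p = 0.828, 0.919 and 0.967, adjusted p from 0.946 to 0.967), and rho of -0.14, 0.14 and -0.14. Replicate 2 of that group held the highest C3, 15.03 CPM, with C1qa at 57.6 CPM, second lowest of the 6. Replicate 4 held the highest C1qa, 99.7 CPM, with C3 at 4.58 CPM. In LRT overload C3 had r of 0.56, 0.34 and 0.87 with the 3 chains (exact permutation p = 0.303, 0.572 and 0.0583, adjusted p = 0.507, 0.808 and 0.2) and rho of 0.31, 0.26 and 0.6. Without the 2 libraries farthest from the median of the C1q chain, r was -0.28, -0.41 and 0.98. Replicate 6 was the lowest library for C1qa, C1qc and C3. No relation with C3 passed in any group.

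**Figure D5:**
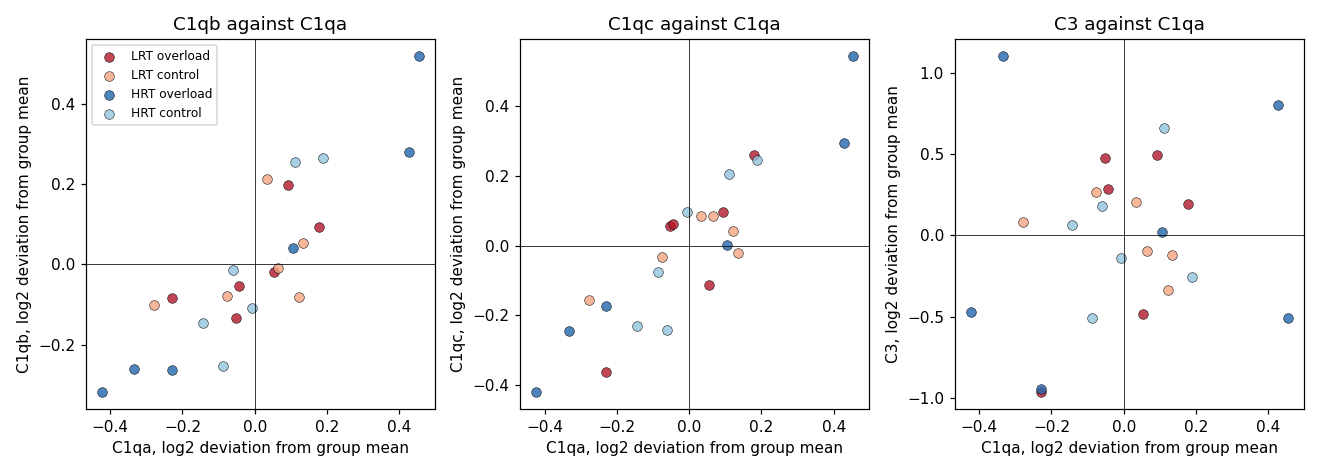
Each library's deviation from its group mean on the log2(CPM + 0.5) scale, for C1qb, C1qc and C3 against C1qa. Over all 24 libraries r was 0.86 for C1qb and 0.89 for C1qc, whose points follow a diagonal, and 0.14 for C3, whose points scatter. The HRT overload libraries spread most and weigh most in these r.

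The same deviations were used to ask which of the 16661 genes varied most like each member, as a description over 24 libraries that share their scaling. Spread was not made equal between groups. For C1qa the SD of log2 CPM was 0.388 in HRT overload, against 0.129 in HRT control, 0.143 in LRT overload and 0.160 in LRT control. The r and ranks for the C1q chains therefore lean on HRT overload. For C1qa, C1qc ranked first (r = 0.89) and C1qb second (r = 0.86) of 16660 other genes. For C1qb, C1qa ranked first and C1qc second (r = 0.82), and for C1qc, C1qa was at place 1 and C1qb at place 4. C3 stood at places 5598, 4450 and 3736 for C1qa, C1qb and C1qc, with r of 0.14, 0.19 and 0.23. Before the group means were taken off, C3 had r of 0.92 with each chain, which carries the difference between overloaded and control muscle.

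Outside the 4 genes, ENSRNOG00000016826, for which no name was at hand, varied most like the mean of the C1q chains, with r = 0.84 after group means were taken off and 0.98 before. It averaged 13.2 ± 1.56 CPM in LRT overload and 4.24 ± 0.417 CPM in LRT control, and 13.9 ± 3.47 CPM in HRT overload and 4.10 ± 0.678 CPM in HRT control (SD, n = 6 each). For C3 it was ENSRNOG00000059260, with r = 0.80 after group means were taken off and 0.26 before. That gene averaged 2.64 ± 1.16 CPM in LRT overload and 2.65 ± 1.04 CPM in LRT control, and 2.50 ± 1.52 CPM in HRT overload and 2.27 ± 0.649 CPM in HRT control. Second to C3 was ENSRNOG00000014333 (r = 0.78, and 0.98 before), at 10.7 ± 1.89 CPM in LRT overload and 3.35 ± 0.274 CPM in LRT control, and 12.4 ± 3.27 CPM in HRT overload and 3.76 ± 0.259 CPM in HRT control. Over the tested genes outside the set, 3 had r over 0.8 with the mean of the C1q chains and 1 with C3.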

How the data were processed

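Libraries were prepared from total plantaris RNA with a TruSeq kit, per the labels' protocols. All 24 were used, grouped by line and treatment labels. The authors deposited estimated counts per Ensembl gene, not normalized. Salmon 0.9.1, Rnor_6.0 and rn6 are listed in the submitters' processing notes, with annotation and settings not stated in what was used here. Estimated counts divide reads shared by similar genes. The 4 members and the lists were chosen with earlier results of these data known.

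Counts were rounded and filtered with filterByExpr (minimum count 10, minimum total 15), which left out 15337 genes and no member. In R 4.3.3 with edgeR 4.0.16, TMM scaling and a robust quasi-likelihood fit, 1 term for every group, gave 5 contrasts, adjusted by Benjamini-Hochberg over all 16661 genes (threshold 0.05). Standard errors were computed from each log2 fold change and its F statistic, and intervals are from the model's t distribution. Ratios and correlations used log2(CPM + 0.5) with exact two-sided permutation tests in Python 3.11.15 and Benjamini-Hochberg adjustment within each family. Genes named were the 4 members in every contrast; for identifiers without names, those most like a member were limited to 3. Alternatives were DESeq2 1.42.0, its size factors, limma-voom (limma 3.58.1), other filters, scaling by totals, dispersion without robust estimation, RIN, blocks, fits of only those groups under comparison, and omission of single libraries. Weights per group, unrounded counts, a block within line, no pseudocount and the line difference of ratios were added after seeing the data. Deviations of same-numbered overloaded and control libraries had r from -0.070 to 0.076 in HRT and from -0.125 to 0.123 in LRT. Between lines r ran from -0.16 to 0.49. The labels state no pairing, so replicate numbers were not taken as pairs. A low r cannot tell whether 2 muscles came from the same rat. No libraries were duplicates (lowest chi-square per degree of freedom 12.4 over 60 pairs within groups). The model was tested on simulated counts.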

Additional observations from a re-analysis of the deposited data

Results flagged for a closer look

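With overload, the log2 ratio of C1qa to C1qb changed differently in the lines, by -0.30 (LRT minus HRT). For C1qb to C1qc the difference was 0.32. Each passed an exact permutation test (adjusted p = 0.0278 over 6 ratios) that was added after the values had been seen. That test is exact only if the lines differ in neither state. Both calls were lost without LRT control replicate 4 or 6 or HRT control replicate 1, and the second also without HRT overload replicate 3 (adjusted p up to 0.0594). Both rest on C1qb, and neither appears in the test of C1qb alone, where the difference of 0.17 had an edgeR adjusted p of 0.696. In 16 groups of 6 libraries (4 genes in 4 groups), 0 held a library that stood apart by Dixon's criterion. The criterion weighs the gap of a single library and can miss libraries that are high together. Replicates 2 and 6 of HRT overload, at 15.03 and 12.1 CPM for C3, were not flagged.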

How the results depend on the processing

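The rise of each of the 4 genes with overload kept its direction and its call in all 26 other settings per line. The log2 fold changes ran over these from 1.29 (C1qb, RIN as a covariate) to 4.23 (C3, RIN as a covariate) in HRT and from 1.40 (C1qc) to 3.95 (C3) in LRT, and edgeR, limma or DESeq2 adjusted p reached at most 6.84e-05 in HRT and 7.12e-05 in LRT. Leaving out single libraries moved C3 between 3.27 and 3.88 in HRT and between 3.47 and 3.75 in LRT. The line difference in the response of C3 had no stable sign: 0.023 became -0.076 with scaling by totals, -0.28 with RIN and -0.18 with the replicate block and RIN, and with any 1 library omitted it lay between -0.29 and 0.32. In overloaded muscle, C1qa (-0.42) and C1qc (-0.47) passed between lines with scaling by totals, which was 1 of 25 settings.

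With log2(CPM + 1) the overload changes of C1qa to C3 (-0.45 in LRT, -0.48 in HRT), C1qb to C3 (-0.56, -0.88) and, in HRT, C1qc to C3 (-0.73) no longer passed, since a larger constant shrinks C3 most. As single HRT libraries were left out, C1qa to C3 ran from -1.09 to -0.61, losing its call in 9 of 12 cases, and C1qc to C3 from -1.35 to -0.87, losing it without HRT overload replicate 2. C1qb to C1qc in HRT ran from -0.20 to -0.11 and passed without HRT control replicate 2 or 3. The line difference in C1qa to C1qb ran from -0.33 to -0.26 and that in C1qb to C1qc from 0.27 to 0.36. Both lost their call without LRT control replicate 4 or 6 or HRT control replicate 1, and the second also without HRT overload replicate 3 (adjusted p at most 0.0594). The uncalled line differences changed sign for C1qa to C1qc (-0.011 to 0.056), C1qa to C3 (-0.30 to 0.18; 0.028 with log2(CPM + 1)) and C1qc to C3 (-0.30 to 0.18; 0.00314 with log2(CPM + 1)). Scaling by totals left the HRT overload correlations at 0.97 (C1qa, C1qb), 0.97 (C1qa, C1qc) and 0.98 (C1qb, C1qc) but took their adjusted p to between 0.0667 and 0.0889, and turned that of C1qc and C3 in LRT control to 0.24 from -0.24.

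Replicate numbers were not taken as pairs, and whether they pair muscles of a rat is not given. A replicate block changed no call of the 4 genes. Sign flips of same-numbered differences cannot give a p below 0.03125, and over 12 tests no ratio passed (adjusted p at least 0.0625) at the values 0.40, 0.27, 0.24, -0.91, -0.90, -1.01, -1.30, -1.18 and -1.14 that passed without it. The background counts moved more: the count of genes whose responses differed was 8 in the model used and 137 with DESeq2, 1 with a replicate block, and 1 to 25 with single libraries left out. For control muscle it was 328 and ran from 154 to 793, and for overloaded muscle 514, from 115 with the compared groups alone to 2153 with scaling by totals.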
